A study of Mus musculus with 4 samples.

Results

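The genes described here are 10 genes of iron and heme handling: Hmox1, Blvrb, Fth1, Ftl1, Tfrc, Trf, Slc11a1, Slc40a1, Cd163 and Hpgd. They were taken by their gene symbols, as a fixed list of 10 of the 32285 genes counted, and all 10 were found under 1 gene identifier each. The data are single-cell RNA sequencing (10x Genomics 3′ chemistry) of tumors from DLA, a mouse ascites tumor line labelled as lymphoma that was injected into the peritoneum of Swiss albino mice. The 2 Control libraries come from tumors that the sample labels call untreated, while vehicle controls are named elsewhere in the study, and the 2 SP11 libraries from tumors of mice given SP11, an inhibitor of the chaperone HSP90, by mouth at 30 mg/kg for 17 days. All 4 libraries carry the same transplanted line, no genotype beyond it is given in the labels, and red blood cells were lysed before loading. The question put to these genes was whether macrophages or tumor cells show a heme or iron response where the SP11 libraries carry much more hemoglobin RNA.

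Heme from hemoglobin is opened by heme oxygenase, which releases iron, carbon monoxide and biliverdin, and biliverdin reductases turn the pigment into bilirubin. Released iron is stored in ferritin, a shell of heavy and light chains, or leaves the cell through ferroportin, while transferrin carries iron in the blood and its receptor brings it into cells. Macrophages that clear red cells are known for high heme oxygenase, ferritin and ferroportin, and heme induces Hmox1 transcription through release of the repressor BACH1.

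When iron is scarce, iron regulatory proteins bind a hairpin, the iron-responsive element, in several of these mRNAs, where they block translation from a 5′ UTR and protect the mRNA from a 3′ UTR. The transcripts of the 10 genes were searched, on the sense strand, for C, then NNNNN, then the loop CAGTGN, then NNNNN, with the 5 bases on either side of the loop able to pair (G-U pairs allowed). Of 21877 protein-coding genes searched in GENCODE M21 transcripts, 294 (1.34%) held such a match, and of the 10 members 4 did. The loop CAGTGN alone is in 93.9% of these genes. The 7 member sites are shown, 30 bases each with the loop in capitals, because this hairpin acts after transcription, a step that UMI counts read only through mRNA level. A match is a description of the letters, and binding was not measured.

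Fth1 5′ UTR, exon 1, chr19:9982732-9982761, plus strand: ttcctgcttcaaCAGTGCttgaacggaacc
Ftl1 5′ UTR, exon 1, chr7:45459778-45459807, minus strand: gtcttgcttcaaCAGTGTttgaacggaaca
Slc40a1 5′ UTR, exon 1, chr1:45925464-45925493, minus strand: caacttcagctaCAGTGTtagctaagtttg
Tfrc 3′ UTR, exon 19, chr16:32631219-32631248, plus strand: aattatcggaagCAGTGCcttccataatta
Tfrc 3′ UTR, exon 19, chr16:32631598-32631627, plus strand: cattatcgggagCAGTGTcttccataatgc
Tfrc 3′ UTR, exon 19, chr16:32631663-32631692, plus strand: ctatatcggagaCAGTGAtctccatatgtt
Tfrc 3′ UTR, exon 19, chr16:32631710-32631739, plus strand: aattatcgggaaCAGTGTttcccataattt

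Positions are on GRCm38. The storage genes Fth1 and Ftl1 and the exporter Slc40a1 each held 1 match in the 5′ UTR, and the uptake receptor Tfrc held 4 matches in the 3′ UTR. Hmox1 (ENSMUSG00000005413, chr8:75093621-75100589), Blvrb (ENSMUSG00000040466, chr7:27447978-27466144), Trf (ENSMUSG00000032554, chr9:103204001-103230444), Slc11a1 (ENSMUSG00000026177, chr1:74375195-74386062), Cd163 (ENSMUSG00000008845, chr6:124304656-124330527) and Hpgd (ENSMUSG00000031613, chr8:56294585-56321043) held none. The genes with matches are Fth1 (ENSMUSG00000024661, chr19:9980598-9985098), Ftl1 (ENSMUSG00000050708, chr7:45457944-45459884), Slc40a1 (ENSMUSG00000025993, chr1:45908068-45926523) and Tfrc (ENSMUSG00000022797, chr16:32608920-32632794).

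The libraries held 977, 595, 2277 and 1483 cell barcodes (Control 1, Control 2, SP11 1 and SP11 2, the order used throughout) and between 9646197 and 13632163 UMIs each. Hemoglobin genes took 0.182% and 0.0964% of the UMIs in the Control libraries and 4.03% and 5.05% in the SP11 libraries. Barcodes were put into classes by UMIs of marker genes, which gave 860, 533, 1301 and 591 tumor barcodes, 26, 17, 232 and 136 myeloid barcodes, and 16, 6, 469 and 412 erythroid barcodes with at least 50% hemoglobin. The B class held 1, 0, 163 and 147 barcodes and the T class 9, 1, 15 and 79, so neither was compared between groups. The tumor class rests on keratin genes and the like, with 39437 to 73368 such UMIs per library, while 8 lymphocyte genes, a check of the label lymphoma, summed to 24, 17, 490 and 271 UMIs in the same barcodes. Each pair of libraries shared 60 to 359 barcode sequences, and the share of these that fell in the same class in both libraries (28.4% to 80.0%) was close to the share that the class sizes give (30.3% to 79.2%). Leaving shared sequences out took the tumor barcodes of Control 1 from 860 to 502. Why so many are shared was not tested.

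The members were spread unevenly over the classes, as the plot of levels by barcode class shows. In a fit of myeloid against tumor sums within each library, 7 of the 10 genes had enough UMIs to be tested and all 7 passed the threshold, 6 higher in myeloid and 1 lower, where 49% of all 11449 genes tested were called (20% higher, 29% lower). The median log2 difference of the 7 was 2.00, beside -0.53 over all genes tested. Levels are given as CPM, the UMIs of a gene over all UMIs of the sum, scaled to the same total in every sum. Trf, which encodes transferrin, was at 377, 339, 515 and 576 CPM in myeloid barcodes and at 0.414, 1.48, 3.56 and 1.57 in tumor barcodes, a log2 difference of 7.79 (SE 0.32, edgeR adjusted p = 2.27e-131). Slc11a1, the phagosomal metal transporter NRAMP1, was at 47.1 to 66.4 CPM in myeloid barcodes from 2 to 17 UMIs, and at most at 0.404 in tumor barcodes (log2 difference 7.57, SE 0.63, edgeR adjusted p = 3.18e-31). Trf and Slc11a1 were too low in tumor barcodes for the filter on low counts and entered the fit through their myeloid sums. Their direction was thus largely set by the filter, and their tests are no support for it. Both are among the 6 higher genes and in the median of 2.00. The heme-degrading enzyme Hmox1 was higher in myeloid barcodes by 2.62 (SE 0.29), the biliverdin reductase gene Blvrb by 2.00 (SE 0.26), and the ferritin genes Ftl1 and Fth1 by 1.54 (SE 0.13) and 1.03 (SE 0.12) on the log2 scale. In each of these 6 genes every myeloid library lay above every tumor library.

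**Figure D1:**
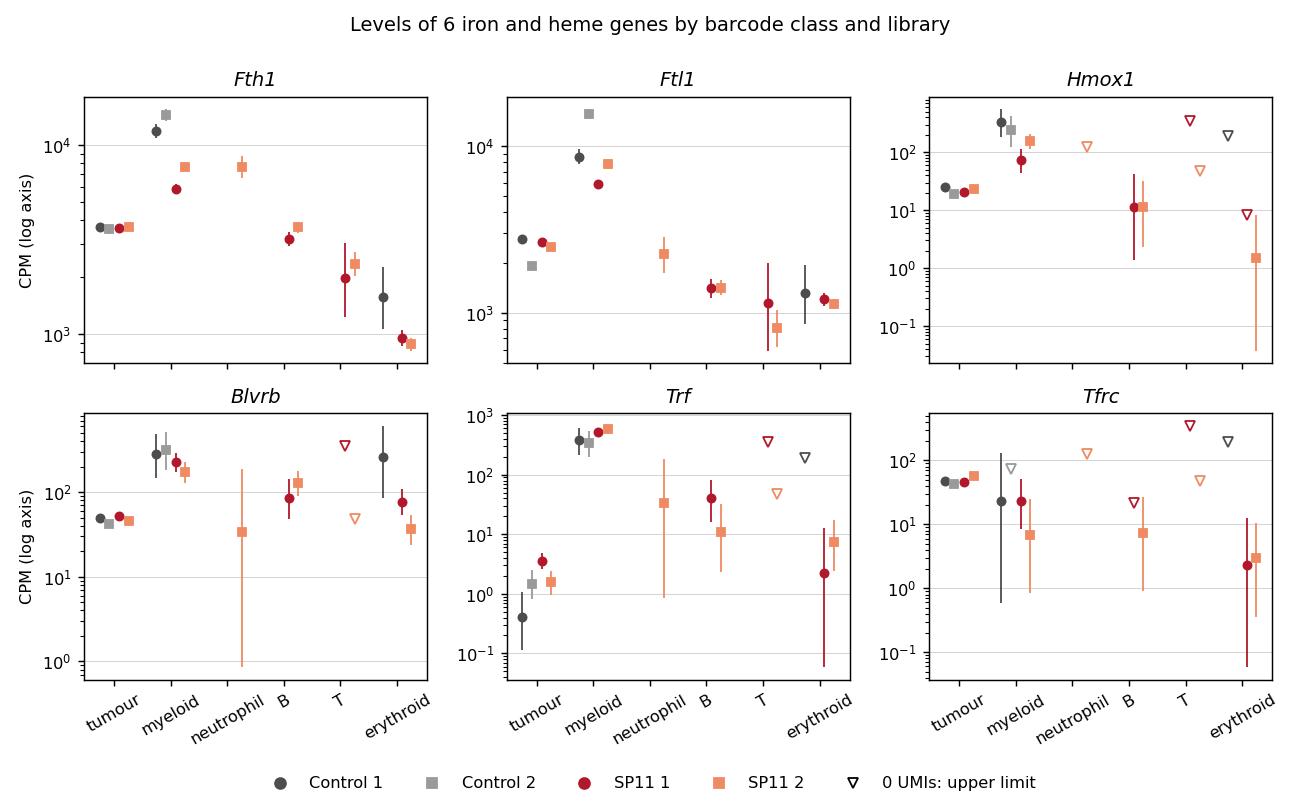
Level in CPM (log axis) of 6 members in each barcode class, 1 point per library with its exact Poisson 95% interval. Sums of under 10 barcodes are left out, and an open triangle marks the upper limit where no UMI was seen. Where UMIs were seen, Ftl1, Hmox1, Blvrb and Trf sit highest in the myeloid barcodes of each library and Tfrc in its tumor barcodes, while Fth1 of SP11 2 is at 7643 CPM in neutrophil and 7620 in myeloid barcodes. B and T points come from the SP11 libraries alone and neutrophil points from SP11 2.

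Tfrc, the transferrin receptor, ran the other way. It had 459, 405, 563 and 682 UMIs in tumor barcodes (47.5, 42.8, 45.5 and 56.2 CPM) and 1, 0, 6 and 2 UMIs in myeloid barcodes, a log2 difference of -1.98 (SE 0.49, edgeR adjusted p = 0.000188). Without SP11 2 the difference was -1.53 (edgeR adjusted p = 0.0716), so this call rests on that library. The erythroid barcodes held 0, 0, 1 and 2 UMIs of Tfrc, a receptor that immature red cells carry at high level, beside 17, 9, 384 and 707 UMIs of Alas2, the erythroid enzyme of heme synthesis.

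In the other classes the SP11 libraries gave the usable values. Fth1 was at 3173 and 3664 CPM in B barcodes, at 1988 and 2356.5 in T barcodes and at 952 and 882 in erythroid barcodes of SP11 1 and SP11 2, below the 5883 and 7620 of their myeloid barcodes. The 38 neutrophil barcodes of SP11 2 held 228 UMIs of Fth1, or 7643 CPM (exact Poisson interval 6683 to 8702), a level that its myeloid interval (7306 to 7943) overlaps, and the other libraries had 2 to 4 such barcodes. Ftl1 was at 2246 CPM in these neutrophil barcodes, below the 7795 of the myeloid barcodes. Hmox1 gave 2 and 3 UMIs in B barcodes, 0 in T barcodes, where its upper limits were 349 and 48.0 CPM, 0 and 1 in erythroid barcodes, and 0 in the neutrophil barcodes of SP11 2 (upper limit 124 CPM). So the order for Hmox1 in these libraries was myeloid, tumor, B and erythroid, with the B intervals (1.39 to 41.5 and 2.30 to 32.5 CPM) reaching the tumor levels of 20.4 and 23.0. These sums come from barcodes of 1 library each, and their intervals cover counting error only.

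Of the remaining members, 3 were at or near 0. Cd163, the macrophage receptor that takes up hemoglobin bound to haptoglobin, had 0 UMIs in every class of every library, where 3 counts of the total would be 70.6, 59.9, 11.7 and 10.3 CPM in the myeloid sums. Slc40a1, the iron exporter ferroportin, had 0 UMIs in the myeloid barcodes of all 4 libraries, 0, 1, 4 and 2 in tumor barcodes, 2 in the neutrophil barcodes of Control 2 and 1 in the erythroid barcodes of SP11 2. Hpgd, which degrades prostaglandins and is not an iron gene by its enzyme activity, had 1 UMI in the myeloid barcodes of SP11 2 and 1 in the tumor barcodes of SP11 1. These 3 genes were not tested, and the depth sets no finer limit on them.

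Tumor barcodes of the SP11 libraries showed no change in these genes that passed the test. Of the 10 members 6 had enough UMIs and 0 were called, where 2.32% of 11593 genes tested were called in edgeR (1.79% higher, 0.535% lower). Of these 6 only Trf had an unadjusted p under 0.05, and 0 passed in DESeq2. The median log2 fold change of the 6 was -0.004, beside -0.004 over all genes tested. Hmox1 had 243, 182, 252 and 279 UMIs in tumor barcodes, or 25.1, 19.2, 20.4 and 23.0 CPM, so the SP11 values lay between the Control values. Its log2 fold change was -0.16 (SE 0.16, 95% interval -0.49 to 0.16, edgeR adjusted p = 0.6745). The upper end, a rise of 0.16, holds for this fit of 2 against 2 libraries and its normalization. In the same barcodes Hba-a1 and Hbb-bs, which encode the hemoglobin chains, had log2 fold changes of 5.25 and 4.89.

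The storage and uptake genes of tumor barcodes were as even. Fth1, the ferritin heavy chain, was at 3705, 3597, 3620 and 3668 CPM, a range that the groups share (log2 fold change -0.13, 95% interval -0.43 to 0.18, edgeR adjusted p = 0.7292). Ftl1, the light chain, was at 2754, 1912, 2648 and 2495, with Control 2 below the rest (0.01, interval -0.35 to 0.37, adjusted p = 0.9808). Tfrc had a log2 fold change of 0.04 (interval -0.24 to 0.32, adjusted p = 0.9204), and Blvrb, at 50.1, 42.4, 53.1 and 46.3 CPM, of -0.02 (interval -0.32 to 0.28, adjusted p = 0.9623). After each tumor barcode was thinned to 5000 UMIs, 10.8%, 8.25%, 9.72% and 12.6% of them kept a UMI of Hmox1, and 20.4%, 21.0%, 18.9% and 24.4% one of Tfrc. Before thinning these shares were 24.0%, 26.1%, 16.8% and 36.4% for Hmox1, on median depths of 10844, 17109, 8758 and 19651 UMIs per barcode. Thinning left out 61, 24, 149 and 18 shallower barcodes.

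Trf was the member of tumor barcodes with the largest fitted value, 1.32 (SE 0.52, interval 0.23 to 2.42, edgeR adjusted p = 0.2322), from 4, 14, 44 and 19 UMIs. It was called without Control 2 (2.47, adjusted p = 0.0267) and without SP11 2 (1.83, adjusted p = 0.0105), and with the replicate number as a block (1.28, adjusted p = 0.0342). Marker UMIs of myeloid cells in the tumor barcodes moved with it, at 16.97, 16.1, 102 and 35.0 CPM, with 9, 10, 11 and 11 of the 11 markers seen. At the ratio of Trf to Lyz2 in the myeloid barcodes of the same library, the Lyz2 UMIs of the tumor barcodes would bring 6.86, 6.39, 56.3 and 17.6 UMIs of Trf.

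**Figure D2:**
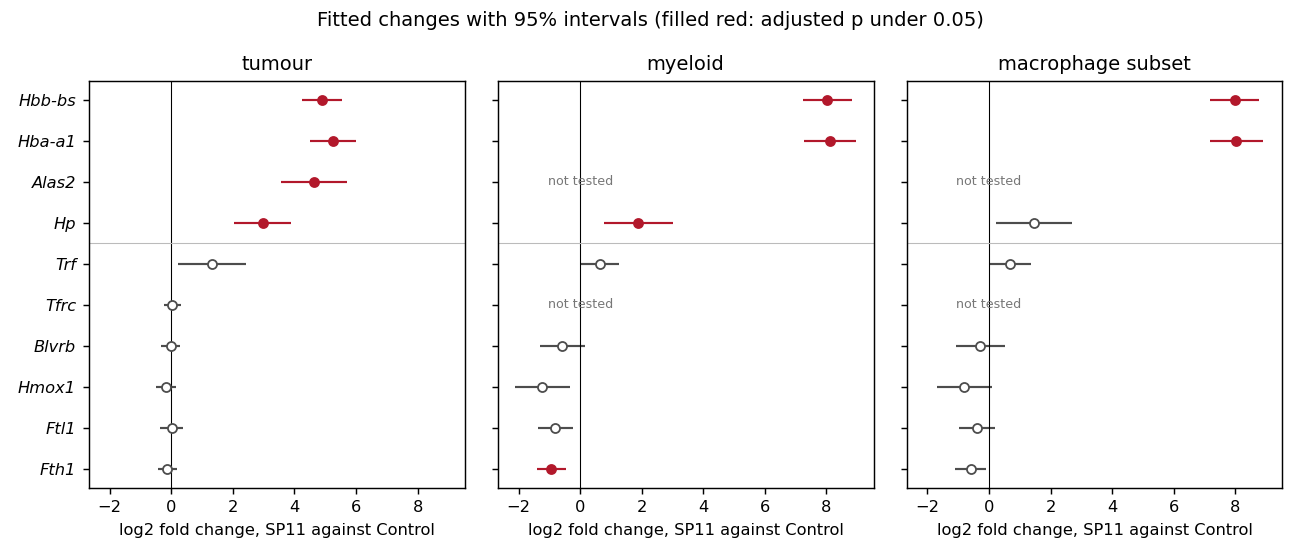
Log2 fold changes from Control to SP11 with 95% intervals in tumor barcodes, myeloid barcodes and the macrophage subset of the latter, from edgeR. Of the 6 members below the grey line, Trf is at 1.32 and the others lie near 0 in tumor barcodes. In both myeloid panels Tfrc was not tested, Trf lies above 0 and the other 4 below, with Fth1 in myeloid barcodes the member called. Hbb-bs, Hba-a1, Alas2 and Hp above the line are not members. Of these Hbb-bs and Hba-a1 give the scale of the hemoglobin difference.

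Myeloid barcodes carried a larger hemoglobin difference than tumor barcodes, at 259, 199.7, 70695 and 49119.7 hemoglobin CPM. Their heme and ferritin genes did not pass the test for a rise. Of the 10 members 5 were tested and 1 was called, Fth1, which was lower with SP11, where 6.88% of 2282 genes were called (4.21% higher, 2.67% lower). The median log2 fold change of the 5 was -0.81, beside 0.05 over all genes tested. Fth1 was at 11862, 14358, 5883 and 7620 CPM from 504, 719, 1507 and 2222 UMIs, so both SP11 libraries lay below both Control libraries (log2 fold change -0.93, SE 0.23, interval -1.41 to -0.45, edgeR adjusted p = 0.0236). This call was lost without Control 2 (-0.71, adjusted p = 0.0516), without SP11 1 (-0.57, adjusted p = 0.5034), without SP11 2 (-0.92, adjusted p = 0.2417), with no filter on low counts (-0.70, adjusted p = 0.0808) and without the barcode sequences found in several libraries (-0.64, adjusted p = 0.1137). The direction was the same in every alternative run for this gene.

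Hmox1 in myeloid barcodes had 14, 12, 19 and 46 UMIs, or 329.5, 239.6, 74.2 and 158 CPM, again with both SP11 libraries below both Control libraries. The log2 fold change was -1.23 (SE 0.43, interval -2.13 to -0.33), with an edgeR adjusted p of 0.0855. The exact Poisson intervals of the Control values, 180.1 to 553 and 124 to 419 CPM, overlap that of SP11 2 (115 to 210) and lie above that of SP11 1 (44.7 to 116). Among barcodes thinned to 1000 UMIs, 22.7%, 11.8%, 3.67% and 16.1% kept a UMI of Hmox1, against 38.5%, 35.3%, 5.17% and 23.5% before thinning on median depths of 1565, 2658, 973.5 and 1884 UMIs, so the thinned shares of the groups overlap. Of SP11 1 and SP11 2, 123 and 24 barcodes were too shallow to be thinned. In T barcodes 0 UMIs of Hmox1 were seen. Their upper limits of 349 and 48.0 CPM in SP11 1 and SP11 2 lie above the tumor levels, so these sums cannot show absence.

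Ftl1 was at 8685, 15576, 5906 and 7795 CPM in myeloid barcodes (log2 fold change -0.81, SE 0.27, edgeR adjusted p = 0.0730). Without Control 1 it was at -1.23, and it was called in barcodes with under 5% hemoglobin (-0.88, edgeR adjusted p = 0.0264). Blvrb, at 282, 319.5, 226 and 171 CPM from 12 to 58 UMIs, was fitted at -0.58 (SE 0.35, adjusted p = 0.3373), and its counting intervals overlap between the groups. Trf had 16, 17, 132 and 168 UMIs and was fitted at 0.64 on the log2 scale (SE 0.30, interval 0.02 to 1.27, adjusted p = 0.1896), with both SP11 values above both Control values. Slc11a1, at 2, 3, 17 and 15 UMIs, was too low to be tested for SP11 within myeloid barcodes, and its levels of 47.1, 59.9, 66.4 and 51.4 CPM overlap.

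The UMIs of ferritin light chain are divided between Ftl1 and Ftl1-ps1, a near copy on chromosome 13 that the files count as a gene of its own. The last 500 bases of the Ftl1 transcript and the copy are identical at 497 positions in the GENCODE M21 sequences. In tumor barcodes the copy took 1.43%, 0.5%, 2.67% and 1.57% of the UMIs of both. In myeloid barcodes it took 55.3%, 3.35%, 43.0% and 34.7%, so Control 2 stood apart from the other libraries there. Ftl1 values without Control 1 rest on Control 2 as the only Control, so they compare unlike divisions of these UMIs. How far this enters them was not tested. With the copy added, ferritin light chain in myeloid barcodes was at 19441, 16115, 10364 and 11930 CPM, and both Control libraries lay above both SP11 libraries (log2 fold change -0.64, SE 0.21, edgeR adjusted p = 0.0654). The difference of myeloid from tumor barcodes grew from 1.54 to 2.18 with the copy added.

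**Figure D3:**
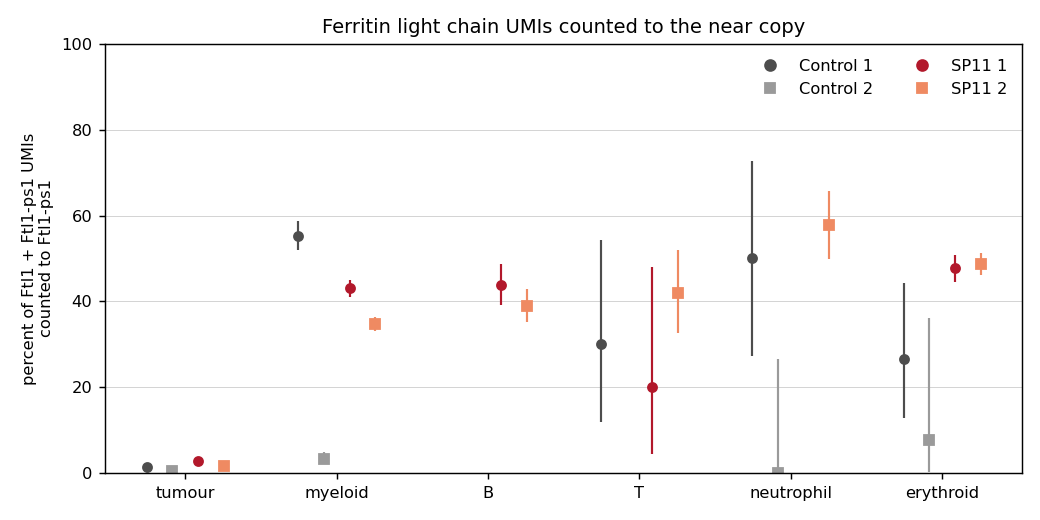
Percent of the UMIs of Ftl1 and Ftl1-ps1 together that were counted to Ftl1-ps1, by barcode class and library, with exact Clopper-Pearson 95% intervals, where the class held at least 10 such UMIs. The tumor barcodes sit between 0.5% and 2.67%, the myeloid barcodes of Control 1 and the SP11 libraries between 34.7% and 55.3%, and those of Control 2 at 3.35%.

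The make-up of the myeloid class differed between the groups. By the larger of 2 marker sums, 25, 16, 141 and 71 of its barcodes were nearer to macrophages and 1, 1, 62 and 57 nearer to monocytes. Within the macrophage subset 5 members were tested and 0 were called, where 5.01% of 1577 genes were called in edgeR (3.74% higher, 1.27% lower). At an unadjusted p under 0.05 were Fth1, which was lower, and Trf, which was higher, and in DESeq2 Fth1 was called (-0.63, adjusted p = 0.0382). Fth1 was at 12010.5, 14630.4, 7026.5 and 9446.3 CPM there (log2 fold change -0.60, SE 0.24, interval -1.11 to -0.09, edgeR adjusted p = 0.1524), and Hmox1 at 310.4, 249, 97.8 and 198 (-0.80, SE 0.43, interval -1.68 to 0.09, adjusted p = 0.2746). Without Control 1, Fth1 was at -0.83 and Ftl1 at -0.84, where Ftl1 was at -0.40 with all 4 libraries (edgeR adjusted p = 0.4327). The near copy took 3.39% of the light chain UMIs of Control 2 there, beside 39.2% and 29.0% in SP11 1 and SP11 2. The monocyte subset of SP11 1 and SP11 2 held less of both genes than the macrophage subset of the same library, 4235 and 4891 CPM of Fth1 and 47.1 and 85.3 of Hmox1, the latter from 3 and 9 UMIs. How far the make-up of the class enters its Fth1 value was not tested beyond this subset.

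The SP11 effect in myeloid barcodes was also set against that in tumor barcodes in 1 fit. Of 7 members tested 0 were called, where 0.839% of 11449 genes were called in edgeR (0.681% higher, 0.157% lower), and at an unadjusted p under 0.05 were Fth1 and Ftl1. Slc11a1 is among the 7 with 1, 2, 5 and 2 UMIs in tumor barcodes, so its test could show little. The difference was -0.45 for Fth1 (SE 0.21, interval -0.85 to -0.05, adjusted p = 0.5079), -0.45 for Ftl1 (SE 0.21, adjusted p = 0.5426) and -0.75 for Hmox1 (SE 0.45, interval -1.63 to 0.14, adjusted p = 0.7647). Without Control 1, Fth1 was at -0.85 and Ftl1 at -1.36, whereas Ftl1 was at 0.19 without Control 2. These Ftl1 values rest on 1 Control library each, whose myeloid shares on the near copy differ (55.3% in Control 1, 3.35% in Control 2). The median over all genes tested was 0.63 in this fit, above 0, so each difference and its test are to be read beside that value. The members' median was -0.29. The Control myeloid sums of 42488 and 50077 UMIs leave few UMIs per gene, while Fth1 and Ftl1 had 369 to 780 there. The medians thus rest on genes of unlike counts, and their distance is not read as a result about the members.

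**Figure D4:**
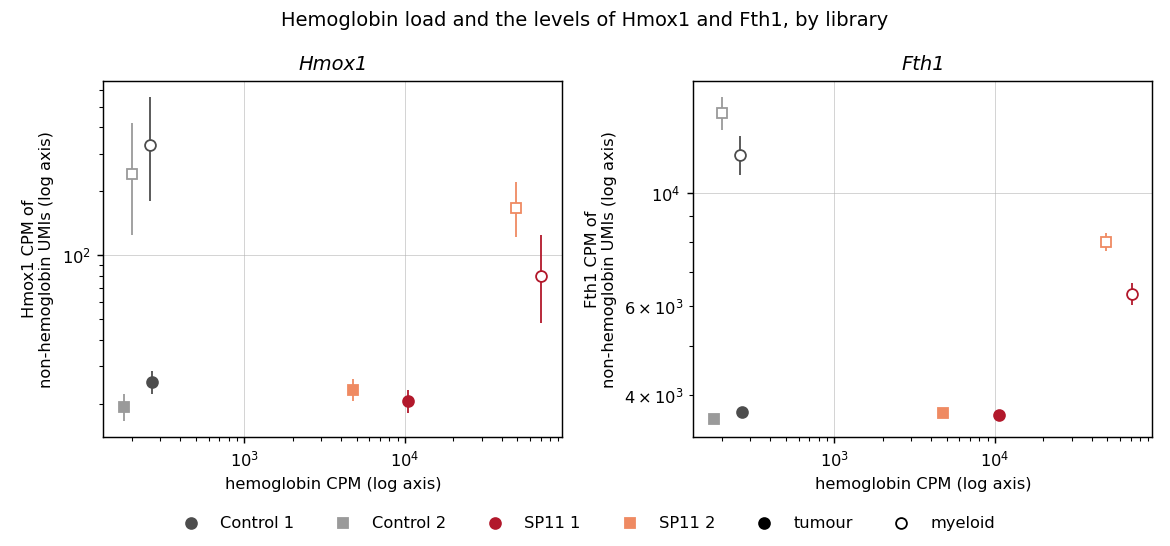
Hmox1 (left) and Fth1 (right), in CPM of non-hemoglobin UMIs, against hemoglobin CPM, 1 point per library for tumor (filled) and myeloid (open) barcodes, with exact Poisson 95% intervals on log axes. In tumor barcodes hemoglobin runs from 179 to 10517 CPM while Fth1 stays between 3597 and 3705 of all UMIs. In myeloid barcodes both SP11 points lie below both Control points. Between the Control points, Hmox1 is higher in Control 1 (330 against 240), which has more hemoglobin (259 against 199.7 CPM).

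Hemoglobin load also varied among the barcodes of one library, with medians of 0.435% and 0.472% of UMIs in the myeloid barcodes of SP11 1 and SP11 2 and 0 in those of the Control libraries. Each SP11 library was split at its own median, and levels were taken as CPM of the UMIs outside the hemoglobin genes. Hmox1 was at 64.5 in the lower part and 96.4 in the higher part of SP11 1, and at 219 and 83.3 in SP11 2, so the direction differed between the libraries. Fth1 was lower in the higher part in both, 6881 against 5732 in SP11 1 and 9522 against 5652 in SP11 2. Ftl1 was at 6397 and 6310.4 in SP11 1, whose intervals overlap, and at 9463 and 6216 in SP11 2. Barcodes with over 5% hemoglobin, 36 in SP11 1 and 14 in SP11 2, held 2 and 1 UMIs of Hmox1, and their Fth1 levels of 5509 and 9530.4 lay below and above the 6536 and 8118 of barcodes under 1%. Barcodes of 1 library are no replicates, so these values have no test. Free RNA was not subtracted, and the parts were not matched for depth or for macrophage and monocyte barcodes. The hemoglobin share is therefore no measure of heme taken up.

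**Figure D5:**
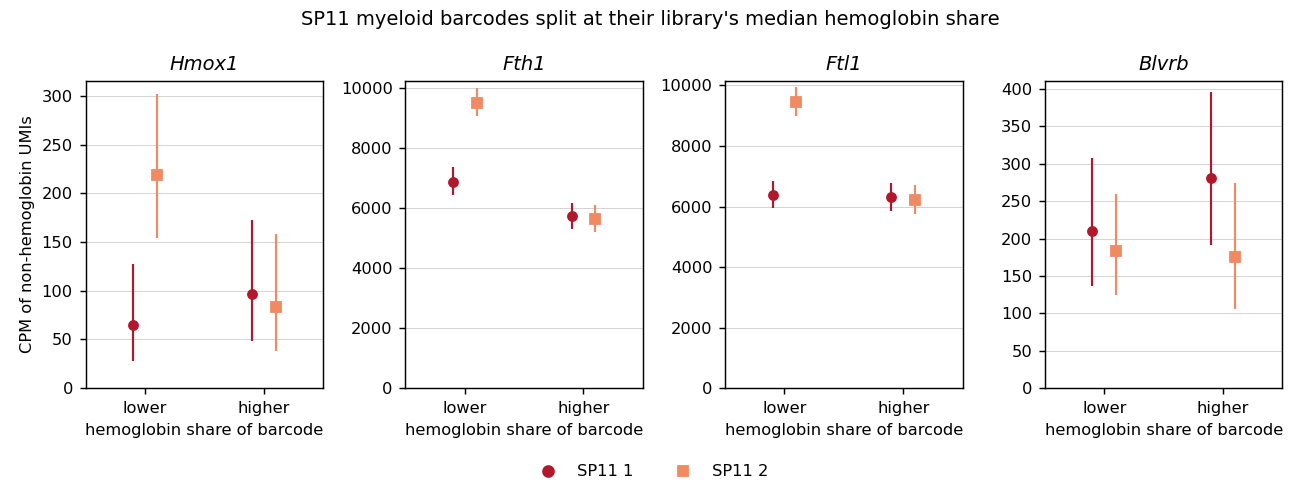
CPM of non-hemoglobin UMIs of Hmox1, Fth1, Ftl1 and Blvrb in SP11 myeloid barcodes, split at the median hemoglobin share of their library, with exact Poisson 95% intervals. Fth1 is lower in the barcodes with more hemoglobin in both libraries (5732 and 5652 against 6881 and 9522), and Hmox1 moves in opposite directions. The parts were not matched for depth or for macrophage and monocyte barcodes.

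RNA that comes with hemoglobin can be read from the erythroid barcodes of the same library. At their ratio of each member to hemoglobin, the hemoglobin UMIs in myeloid barcodes of SP11 1 and SP11 2 would bring 1.33% and 0.653% of the Fth1 UMIs seen there and 1.67% and 0.82% of those of Ftl1. In tumor barcodes of SP11 1 the same ratio would bring 0.321% of Fth1 and 1.78% of Blvrb UMIs. For Hmox1 it would bring 0 and 0.053% of the myeloid UMIs.

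A wider list of 49 genes of the same pathways was counted in the same fits. In tumor barcodes 41 of the 49 were tested, 3 were higher with SP11 and 0 lower, where 1.79% of all genes were called higher, and the median log2 fold change was -0.003. The 3 were Alas2, Hp and Lcn2. Alas2 had 3, 2, 119 and 62 UMIs in tumor barcodes (log2 fold change 4.65, SE 0.51, edgeR adjusted p = 3.2e-05), and hemoglobin carried over at the erythroid ratio would bring 2.89, 2.08, 132 and 68.5. Hp, which encodes the hemoglobin-binding plasma protein haptoglobin, had 3, 7, 64 and 47 UMIs (2.97, SE 0.44, adjusted p = 0.000738). Lcn2, which encodes a binder of bacterial iron carriers, had 1, 2, 16 and 16 UMIs (2.85, SE 0.69, adjusted p = 0.0316). Marker UMIs of neutrophils, the class where Hp and Lcn2 were highest (2045 and 1710 CPM in SP11 2), moved with these genes in tumor barcodes, at 38.4, 49.6, 158 and 181 CPM with 5 to 8 of 8 markers seen, and their part in the Hp and Lcn2 values was not tested.

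The groups of the wider list held no other call in tumor barcodes. Of heme synthesis 9 of 9 genes were tested and 1, Alas2, was called, with Alad and Alas1 at log2 fold changes of -0.08 and -0.13. Of the partners of iron uptake, storage and export 7 of 11 were tested and Lcn2 was called, while Ncoa4, the receptor that takes ferritin to lysosomes, was at 9.21, 11.7, 15.0 and 15.9 CPM (0.43, interval 0.08 to 0.79, edgeR adjusted p = 0.2292) and Slc39a14 and Slc11a2 were at -0.02 and 0.03. Among 5 of 5 genes of iron sensing 0 were called, with Pcbp1, Pcbp2 and Fbxl5 at -0.13, -0.04 and -0.03. Of heme and hemoglobin clearance 8 of 11 were tested and Hp was called, with the heme transporter gene Slc48a1 at 0.05, Hmox2, the constitutive heme oxygenase, at -0.22 and Nfe2l2, which encodes the stress factor NRF2, at -0.17. Mitochondrial iron genes gave 0 calls of 7 tested, with Glrx5 and Iscu at 0.03 and -0.08. Targets of NRF2 other than Hmox1 gave 0 calls of 5 tested of 6, with Gclm, Txnrd1 and Gclc at -0.24, 0.06 and 0.14. The median log2 fold changes were 0.003 for heme synthesis, 0.04 for the iron partners and 0.14 for heme and hemoglobin clearance. They were -0.10 for iron sensing, -0.03 for mitochondrial iron and -0.01 for NRF2 targets.

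In myeloid barcodes 12 of the 49 were tested, 1 was higher and 1 lower, where 4.21% and 2.67% of all genes tested were called so, with a median of 0.29 beside 0.05. By group, heme and hemoglobin clearance had a median of 0.78 over 6 tested, 1 of them called. Iron sensing was at -0.48 over 3 tested, NRF2 targets at -0.35 over 2 and mitochondrial iron at 0.58 from 1. Hp had 5, 1, 57 and 74 UMIs (log2 fold change 1.89, SE 0.54, edgeR adjusted p = 0.0398), and marker UMIs of neutrophils in these barcodes were at 118, 59.9, 995 and 641 CPM, and their part in the Hp value was not tested. Fbxl5, the iron-sensing subunit of a ubiquitin ligase that degrades an iron regulatory protein, was at 683, 639, 144 and 302 CPM from 29, 32, 37 and 88 UMIs, with the SP11 libraries below the Control libraries (-1.52, SE 0.34, interval -2.23 to -0.81, adjusted p = 0.0143). In the macrophage subset 7 of the wider list were tested and 0 were called, where 5.01% of all genes tested were. Heme and hemoglobin clearance had a median of 0.76 there over 4 tested, and iron sensing of -0.56 over 3, beside 0.03 over all genes tested. Fbxl5 was at -1.18 there (interval -1.96 to -0.40, edgeR adjusted p = 0.0695) and Hp at 1.46 (adjusted p = 0.1524). Of the wider list 41 genes were tested between myeloid and tumor barcodes, 11 were higher in myeloid and 9 lower, a share close to the 49% called over all genes tested, among them Fbxl5 at 4.07 and Hp at 5.73 higher and the heme synthesis gene Alad at -3.29.

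Over 13 class-by-library sums of at least 20 barcodes, the 5 genes whose log2 level followed that of Hmox1 most closely among 11560 genes were Plk2 (Pearson r = 0.98), Slc39a1 (0.98), Nceh1 (0.97), Hpse (0.96) and Dcxr (0.96). Of these Slc39a1 encodes a zinc transporter and Hpse heparanase. The sums share libraries and depth and are mostly contrasts of myeloid with other classes, so these values are a description.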

How the data were processed

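The authors sequenced 4 single-cell libraries of DLA tumors (2 Control, 2 SP11) and deposited matrices of unnormalized UMI counts, with genes in rows and barcodes in columns. The submitters' processing notes name Cell Ranger 7.1.0 and the build mm10. The study's methods name hg38 for the alignment, but the files hold mouse genes. Gene names come from the files.

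Barcodes with at least 200 genes and at most 10% mitochondrial UMIs were kept, except for the erythroid class (at least 50% hemoglobin), which was taken from all barcodes. Classes were gated on marker UMIs: tumor on 6 keratin and adhesion genes (3 UMIs, 0.1%), B on 4 and T on 6 genes (2 UMIs, 0.2%), neutrophil on 8 genes (10 UMIs, 5%). The neutrophil gate was applied first, and a barcode that passed several of the others was left out. The first myeloid gate (11 genes, 3 UMIs, 0.5%) left 5 barcodes in Control 2, under the minimum of 10, so 2 UMIs and 0.2% were used for every myeloid value, a change made after seeing the data. Doublets were not removed in the main values, since Scrublet (scanpy 1.11.5) marked 88.9% of Control 1 and 0.0546% of SP11 1. Myeloid barcodes were split by their larger sum of UMIs over macrophage or monocyte markers. Free RNA was not subtracted.

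UMIs were summed per class and library, since cells of 1 library are no replicates, and tested with edgeR 4.0.16 (R 4.3.3; TMM, filterByExpr, quasi-likelihood test, Benjamini-Hochberg over all genes tested, threshold 0.05). SE and 95% intervals come from the same fits. With 2 libraries a group, and no statement in the labels that they are separate animals, p-values speak for these libraries only. These fits pool the spread over genes. So the very small p-values of myeloid against tumor barcodes do not measure the spread of a gene's own values between the 4 libraries. Levels are CPM with exact Poisson intervals, and shares have exact Clopper-Pearson intervals (scipy 1.17.1), both covering counting error only. The fits were first tried on simulated counts with known fold changes. Iron-responsive element matches and positions were read from GENCODE M21 transcripts on GRCm38.

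All 10 members are described. Of the wider list of 49 genes, those past the threshold and up to 3 of each group with the most UMIs are named, and some genes of that list are not reported here. The members and lists were chosen with earlier results of these data known. Alternatives were DESeq2 1.42.0 and its size factors, no filter on low counts, a mitochondrial limit of 20%, at least 500 genes, doubled marker minimums, hemoglobin genes or barcodes left out, each library left out and a replicate block. Added after seeing the data were leaving out the 5% highest doublet scores or shared barcodes, the first myeloid gate, Ftl1-ps1 added to Ftl1, and carry-over at the ratios of erythroid or myeloid barcodes.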

Additional observations from a re-analysis of the deposited data

Results flagged for a closer look

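The members' SP11 effects in myeloid and in tumor barcodes did not pass the test of their difference, but those of 3 hemoglobin genes did, each with a larger rise in myeloid barcodes. The difference of the log2 fold changes was 3.35 for Hba-a1 (SE 0.39, edgeR adjusted p = 1.1e-14) and 3.56 for Hbb-bs (SE 0.34, adjusted p = 1.03e-21). For Hba-a2 it was 11.85 (SE 2.66, adjusted p = 0.00241), a fitted value that depends on the prior count, since this gene had 0 UMIs in the myeloid barcodes of both Control libraries, against 164 and 255 with SP11 and 18, 132, 1325 and 619 UMIs in tumor barcodes. High hemoglobin was not particular to the myeloid barcodes of the SP11 libraries. It was at 47057 and 45601 CPM in B barcodes and 52642 and 21703 in T barcodes of SP11 1 and SP11 2. Tumor barcodes were at 10517 and 4741 CPM, on median depths of 8758 and 19651 UMIs against 973.5 and 1884 in myeloid barcodes. The part of depth in these differences was not tested.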

How the results depend on the processing

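Of the members' values under other settings, 419 kept their direction and their side of the threshold, 10 passed it newly, 6 no longer passed and 22 changed sign. Counts of genes called moved by over 1.5 times as follows. In tumor barcodes 269 genes became 128 with DESeq2, 84 with no filter on low counts, 138 without the highest doublet scores and 1032 with the replicate block. In myeloid barcodes 157 (96 higher, 61 lower) became 90 with DESeq2 (28 higher, 62 lower), 240 in barcodes under 5% hemoglobin, 104 without shared barcodes and 100 with the first myeloid gate. In the macrophage subset 79 (59 higher, 20 lower) became 52 with DESeq2 size factors, 42 with DESeq2 (10 higher, 32 lower), 46 with at least 500 genes, 42 without hemoglobin genes, 51 with Ftl1-ps1 added to Ftl1 and 20 with the first gate. The difference of the SP11 effects gave 96 genes (78 higher, 18 lower), and 51 with DESeq2 size factors (23 higher, 28 lower), 19 with DESeq2, 44 with no filter, 50 with at least 500 genes, 37 without shared barcodes and 58 with the first gate. With each library left out, these counts ran from 253 to 447, 62 to 153, 36 to 131 and 30 to 55, and myeloid against tumor from 3428 to 5427. The highest counts were those without Control 1 in tumor barcodes (447) and the macrophage subset (131). The cause was not tested.

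Signs changed in tumor barcodes for Blvrb without the highest doublet scores (0.0045) and Tfrc without shared barcodes (-0.0343), and in the difference of the SP11 effects for Slc11a1 without the highest doublet scores (0.9983), Blvrb without shared barcodes (0.1675) and, with the first gate, Slc11a1 (1.16), Trf (0.49) and Tfrc (-0.0238). None of these values was called before or after. With each library left out, tumor values ran from -0.36 to 0.0632 for Hmox1, -0.18 to 0.13 for Blvrb, -0.25 to 0.32 for Ftl1 and -0.0651 to 0.14 for Tfrc, those of the macrophage subset from -0.58 to 0.0544 for Blvrb and -0.84 to 0.0933 for Ftl1, and the differences of effects from -1.36 to 0.19 for Ftl1, -0.52 to 0.37 for Slc11a1, -1.58 to 0.48 for Trf and -0.46 to 9.09 for Tfrc. Tfrc had 0 UMIs in the myeloid barcodes of Control 2. Without Control 1 its fitted difference therefore depends on the prior count, and 9.09 is not to be read as the size of an effect.

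The labels give both groups replicates 1 and 2 without saying that a number marks a shared animal, day or batch. With 2 pairs, deviations of same-numbered libraries correlated at 0.163 in tumor and 0.1645 in myeloid barcodes, across genes. With the replicate block, Trf in tumor barcodes passed (1.28, edgeR adjusted p = 0.0342), and no other member's call changed. The doubled marker minimum was not run for myeloid barcodes, nor the setting without shared barcodes for the macrophage subset, since 9 barcodes were left in 1 library. DESeq2 gave no adjusted p for Hmox1 in myeloid barcodes nor for Hmox1, Blvrb and Trf in the macrophage subset. Among the classes compared between groups, the Control myeloid barcodes had shallow sums of 42488 and 50077 UMIs, where Slc40a1 and Cd163 had 0 UMIs.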
